A study of Mus musculus with 9 samples.

Results

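The guanylate-binding proteins (GBPs) and immunity-related GTPases (IRGs) described here are the products of 10 mouse genes, Gbp2, Gbp3, Gbp4, Gbp5, Gbp6, Gbp7, Gbp8, Gbp9, Irgm1 and Igtp, chosen by symbol from the 22376 gene symbols that the files list. They were measured by RNA sequencing in 9 libraries of macrophages grown from the marrow of healthy wild-type C57Bl/6 mice. All cells had 1 week of culture with 10 ng/ml macrophage colony-stimulating factor (M-CSF), were washed free of it, and were then kept 48 h at 50000 per well. There were 3 groups of 3 libraries: PD-L1 antibody at 100 µg/ml (libraries 1 to 3), isotype-matched antibody of no relevant target at 100 µg/ml (libraries 4 to 6) and wells left untreated (libraries 7 to 9). The protein PD-L1 is a surface ligand of the inhibitory receptor PD-1. The wells carried no interferon treatment and no infection by the labels, which also leave it unsaid whether the wells of a group had separate animals or cultures as their source. The spread behind every p-value is therefore that between these libraries and may be technical.

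GBPs and IRGs are GTPases that macrophages make in quantity after exposure to interferon, and that act inside the cell against bacteria and protozoa living in vacuoles. GBPs bind vacuoles and bacterial surfaces, help to break them open and promote the inflammasomes that cleave gasdermin D. Among IRGs, the IRGM proteins, Irgm1 and Igtp (also called Irgm3) among them, sit on host membranes and keep the effector IRGs from acting there. Interferon gamma can act on genes through interferon-gamma activated sequences (GAS), and type I interferon through interferon-stimulated response elements (ISRE). These routes are not exclusive, and neither element is taken here as a mark of a single interferon. Which route serves the members was not tested.

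The members lie in 3 places on the GRCm38 genome. Gbp5, Gbp7, Gbp3 and Gbp2 lie in that order on the plus strand of chromosome 3 within 141075 bases, with Gbp2b, not a member, before Gbp2. Gbp8, Gbp9, Gbp4 and Gbp6 lie on the minus strand of chromosome 5 within 279547 bases. Irgm1 (minus strand) and Igtp (plus strand) are both on chromosome 11. RefSeq promoter sequences, from 250 bases before the annotated start to 50 from it on, were at hand for 6 of the 10 members: Gbp2, Gbp3, Gbp5, Gbp7, Irgm1 and Igtp. They were searched for GAS letters, TTCNNNGAA, which read the same on both strands, and for ISRE letters, which are GAAA, any 2 bases and GAAA again, or TTTC, any 2 bases and TTTC on the other strand.

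ISRE letters stood in the promoters of 6 of these 6 genes, though not at the second annotated start of Gbp3, and GAS letters in those of 3 of 6 (Gbp5, Gbp7 and Igtp). Of all 32851 RefSeq promoters of the same length, 3.44% held ISRE letters, 8.3% GAS letters and 0.454% both. A match is a description of the sequence, not evidence of a bound site. Printed here are 4 promoters, 5′ to 3′ in the gene's own direction with the motif letters in capitals. Gbp5 had the largest fold change of the members, Gbp2 the highest level with the PD-L1 antibody, and Igtp and Irgm1 are the IRG members.
Gbp5, chr3:142496684-142496983, plus strand, GAS and ISRE: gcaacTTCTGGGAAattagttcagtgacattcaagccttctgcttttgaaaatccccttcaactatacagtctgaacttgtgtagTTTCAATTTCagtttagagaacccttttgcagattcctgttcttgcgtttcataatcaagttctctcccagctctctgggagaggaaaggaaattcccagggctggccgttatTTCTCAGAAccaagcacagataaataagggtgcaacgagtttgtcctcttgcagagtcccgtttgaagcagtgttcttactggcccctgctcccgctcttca
Gbp2, chr3:142620413-142620712, plus strand, ISRE: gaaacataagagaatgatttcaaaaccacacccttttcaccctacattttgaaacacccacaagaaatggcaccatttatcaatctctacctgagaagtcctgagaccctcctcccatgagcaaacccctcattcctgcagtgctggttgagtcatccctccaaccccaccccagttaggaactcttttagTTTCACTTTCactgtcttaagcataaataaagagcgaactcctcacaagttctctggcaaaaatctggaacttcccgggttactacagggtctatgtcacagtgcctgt
Igtp, chr11:58199306-58199605, plus strand, GAS and ISRE: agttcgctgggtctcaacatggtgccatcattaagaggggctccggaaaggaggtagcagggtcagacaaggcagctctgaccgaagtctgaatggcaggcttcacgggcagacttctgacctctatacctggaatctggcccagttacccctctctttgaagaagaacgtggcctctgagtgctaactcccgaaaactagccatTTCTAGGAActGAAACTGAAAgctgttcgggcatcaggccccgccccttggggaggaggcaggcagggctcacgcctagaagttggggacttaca
Irgm1, chr11:48871371-48871670, minus strand, ISRE: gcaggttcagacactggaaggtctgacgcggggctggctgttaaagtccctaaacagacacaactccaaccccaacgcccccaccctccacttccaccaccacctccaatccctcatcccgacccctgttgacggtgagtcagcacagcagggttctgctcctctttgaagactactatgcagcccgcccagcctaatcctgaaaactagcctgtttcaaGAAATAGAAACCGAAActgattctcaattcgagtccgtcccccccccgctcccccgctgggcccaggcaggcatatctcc

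In Igtp the GAS letters (positions -45 to -37 from the start site) and the ISRE letters (-34 to -25) are neighbours. In Irgm1 the capitals are 2 ISRE matches that overlap (-30 to -21 and -24 to -15), and Gbp3 likewise has 2 that overlap (-45 to -36 and -39 to -30). Gbp5 has GAS letters at -245 to -237 and -52 to -44 and ISRE letters at -165 to -156. Gbp7 has GAS letters at -106 to -98 and -87 to -79 and ISRE letters at -53 to -44. The match in Gbp2 is at -59 to -50.

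**Figure D1:**
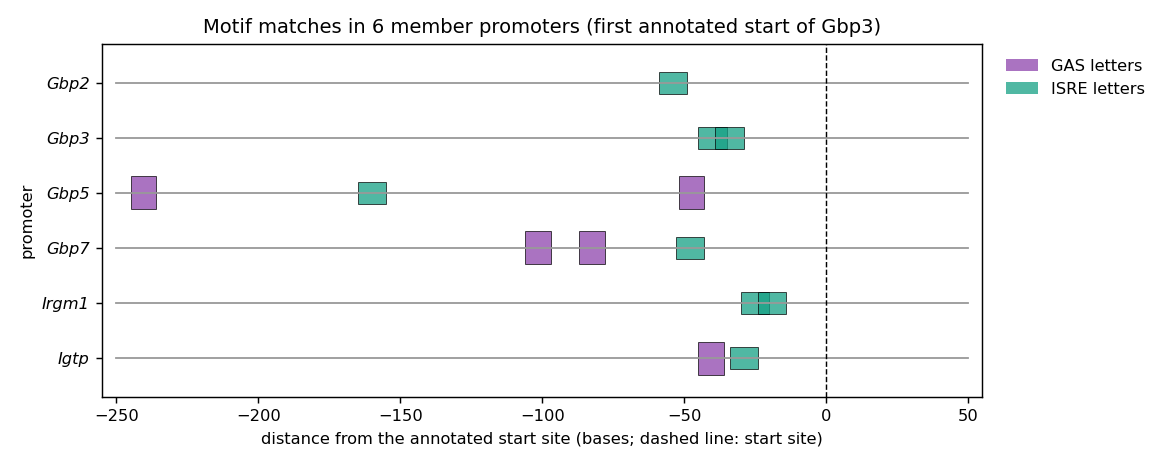
Positions of GAS letters (purple, tall boxes) and ISRE letters (green) in the promoters of 6 members, as distance in bases from the annotated start site (dashed line). All 6 promoters hold ISRE letters, and 5 of the 6 have them within 60 bases before the start, the exception being Gbp5.

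Levels are given in CPM, the exonic read equivalents of a gene per 1e+06 of those in its library after scaling, and changes as log2 fold changes on the log2(CPM + 1) scale, which understates low genes. Tests are limma's moderated test, two-sided, adjusted by Benjamini-Hochberg over the 13741 genes tested, with a threshold of 0.05. All 10 members were among these genes. Depth ran from 23554320 (untreated 7) to 40116467 (untreated 9) exonic read equivalents, which gave the members between 272.4 (Gbp8 in isotype antibody 5) and 18847 (Gbp2 in PD-L1 antibody 1). The file names place PD-L1 antibody 2 in lane 4 and the other libraries in lane 1, and PD-L1 antibody 2 had the highest level of the PD-L1 antibody libraries for 10 of 10 members. The PD-L1 antibody libraries had lower scaling factors (0.9192 to 0.9318) than the others (1.009 to 1.063). Scaling by total count alone moved the median log2 change of all genes by -0.14 against isotype antibody and -0.12 against untreated. The 2495 higher and 2501 lower calls against isotype antibody then became 1565 and 4143, and the 3017 and 2814 against untreated became 1940 and 4088 (2403 and 3433 with upper-quartile scaling). The macrophage markers (Adgre1, Csf1r, Cd68 and 4 others) were present at 1 CPM or more in every library and summed to 20780 to 24640 CPM under PD-L1 antibody, 18890 to 22380 with isotype antibody and 16860 to 22100 in untreated wells. Lyz2 made up much of these sums, and single markers moved: against isotype antibody Adgre1 (2.43-fold), Fcgr1 (2.73-fold) and Itgam (2.23-fold) rose and Cd68 (0.67-fold) fell, and against untreated the same 4 were called in the same directions.

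Setting PD-L1 antibody against isotype antibody addresses what the first changed beyond the presence of antibody protein. With the PD-L1 antibody 9 of the 10 GTPase genes rose, none fell, and Gbp8 did not pass the test. Gbp5 and Gbp6 had the largest changes, 5.34-fold and 5.21-fold, followed by Gbp3, Gbp2, Gbp7, Gbp4 and Igtp at 2.51 to 3.27-fold, Irgm1 at 1.73-fold and Gbp9 at 1.41-fold. Over all genes tested 36.4% were called, 18.2% as higher and 18.2% as lower. The median log2 fold change of the 10 members was 1.48, against -0.01 over all genes tested. Higher in every PD-L1 antibody library than in every isotype antibody library were 9 of 10 members and 26% of all genes, and called with at least a 2-fold rise were 7 of 10 members and 4.35% of all genes. In bulk RNA, more cells of a kind and more RNA per cell cannot be told apart.

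Against untreated wells the same 9 genes passed as higher and Gbp8 again did not pass. The median of the members was 1.4, against -0.01 over all genes. Of all genes 42.4% were called, 22% higher and 20.5% lower, 4.8% were called with at least a 2-fold rise, as 7 members were, and 26.3% had every PD-L1 antibody library above every untreated one, as 9 members had. The 2 comparisons share the PD-L1 antibody libraries and so are not independent of each other. Left with lane 1 only, without PD-L1 antibody 2, the same number of members (9) was called in each comparison. Their log2 fold changes then ran from 0.42 to 2.33 against isotype antibody and from 0.67 to 2.26 against untreated.

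**Figure D2:**
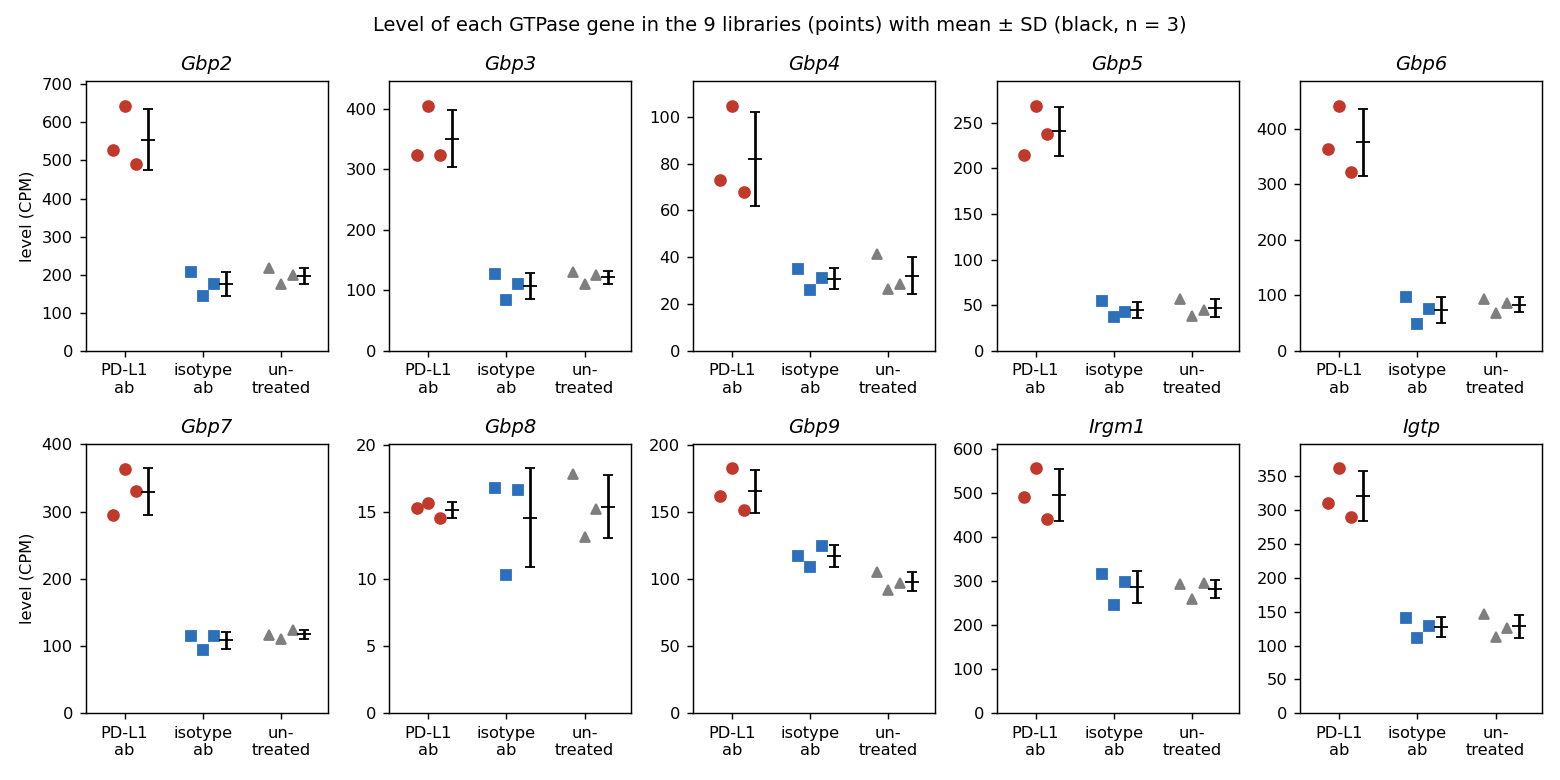
Level of each of the 10 genes in CPM (each panel has its own linear axis from 0) in the PD-L1 antibody, isotype antibody and untreated libraries, 1 point per library, with mean ± SD in black (n = 3). In 9 panels the 3 PD-L1 antibody points lie above the other 6, while in the Gbp8 panel the groups overlap.

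Of the chromosome 3 members, Gbp5 (NM_153564, 142496934 to 142522344), which in mouse macrophages promotes assembly of the NLRP3 inflammasome, was at 214.5, 268.8 and 237.9 CPM in PD-L1 antibody libraries, against 54.65, 37.18 and 41.92 CPM with isotype antibody and 57.17, 38.49 and 45.06 CPM in untreated wells. The lowest PD-L1 antibody library stood more than 3-fold above the highest of the other 6. The log2 fold change was 2.42 against isotype antibody (SE 0.16, limma adjusted p = 1.12e-06) and 2.35 against untreated (SE 0.16, limma adjusted p = 1.38e-06). The share of its exonic bases covered at least 100 times was 86 to 89.2% with the PD-L1 antibody, 2.18 to 43.7% with isotype antibody and 6.65 to 47% in untreated wells. These shares are not scaled for depth. They come from the same coverage as the levels and so are not separate evidence.

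Gbp2 (NM_010260, 142620663 to 142638008), a prenylated GBP that gathers on Toxoplasma vacuoles and bacteria, was at 526.5, 644.4 and 491.9 CPM in PD-L1 antibody libraries, against 207.9, 144.1 and 174.1 CPM with isotype antibody and 217.3, 175.4 and 200.2 CPM in untreated wells. The groups did not overlap, and the rise was 1.66 on the log2 scale against isotype antibody (SE 0.14, limma adjusted p = 6.8e-06) and 1.48 against untreated (SE 0.14, limma adjusted p = 1.5e-05). Gbp3 (142560044 to 142573213), whose protein is also found on Toxoplasma vacuoles, was at 323, 404.9 and 323 CPM in PD-L1 antibody libraries, against 127.5, 84.18 and 110.1 CPM with isotype antibody and 130.6, 109.8 and 124.5 CPM in untreated wells. Here too the groups stayed apart, with log2 fold changes of 1.71 (SE 0.15, limma adjusted p = 6.23e-06) and 1.51 (SE 0.15, limma adjusted p = 1.46e-05). Gbp7 (142530336 to 142550151), reported in mouse macrophages to help bring the phagocyte oxidase to bacteria, was at 294.4, 363.8 and 330.9 CPM in PD-L1 antibody libraries, against 115.7, 94.34 and 115.3 CPM with isotype antibody and 116.9, 110.5 and 124.5 CPM in untreated wells. The groups did not overlap, and its log2 fold change was 1.6 against isotype antibody (SE 0.1, limma adjusted p = 1.01e-06) and 1.48 against untreated (SE 0.1, limma adjusted p = 1.57e-06).

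The 4 members on chromosome 5 did not move alike: their log2 fold changes against isotype antibody ran from 0.08 to 2.38, whereas those of the chromosome 3 members ran from 1.6 to 2.42. Gbp6 (NM_194336, 105270702 to 105293699) was at 363.4, 442.5 and 322.5 CPM in PD-L1 antibody libraries, against 96.07, 48.49 and 75.95 CPM with isotype antibody and 93.7, 67.5 and 86.42 CPM in untreated wells. Isotype antibody 5 was the lowest of the 9, and every PD-L1 antibody library was more than 3-fold above every other library. The change was 2.38 against isotype antibody (SE 0.22, limma adjusted p = 1.02e-05) and 2.18 against untreated (SE 0.22, limma adjusted p = 1.88e-05). Gbp4 (105115767 to 105139586), reported in mouse cells to restrain the transcription factor IRF7, was lower in level at 72.9, 104.8 and 67.64 CPM in PD-L1 antibody libraries, against 35.06, 26.1 and 31.21 CPM with isotype antibody and 41.2, 26.56 and 28.51 CPM in untreated wells. Its log2 fold change was 1.36 against isotype antibody (SE 0.19, limma adjusted p = 0.000232) and 1.32 against untreated (SE 0.19, limma adjusted p = 0.000258).

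Gbp9 (NM_172777, 105078394 to 105110292) rose least of the 9. It was at 162, 182.9 and 151.9 CPM in PD-L1 antibody libraries, against 117.4, 109.1 and 125.2 CPM with isotype antibody and 105.6, 92.14 and 97.41 CPM in untreated wells. The 3 groups were stacked without overlap, with isotype antibody between the others. The rise was 0.49 against isotype antibody (SE 0.09, limma adjusted p = 0.00157) and 0.74 against untreated (SE 0.09, limma adjusted p = 8.46e-05).

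Gbp8 (NM_029509, 105014153 to 105053561), the gene next to Gbp9, was the exception. It was at 15.31, 15.74 and 14.57 CPM in PD-L1 antibody libraries, against 16.83, 10.34 and 16.64 CPM with isotype antibody and 17.86, 13.2 and 15.23 CPM in untreated wells. The 3 PD-L1 antibody values lay inside the range of the other 6. The log2 fold change was 0.08 against isotype antibody (95% interval -0.29 to 0.46, limma adjusted p = 0.74) and -0.01 against untreated (95% interval -0.39 to 0.37, limma adjusted p = 0.966). The estimate for Gbp9 against isotype antibody, 0.49, lay just outside the first interval, but the interval of Gbp9 (0.29 to 0.69) overlapped it. With total-count scaling the value against isotype antibody was -0.08, likewise not called. Exons took a smaller part of the reads over its span in PD-L1 antibody libraries (39.1 to 42%) than with isotype antibody (43.9 to 49.2%) and in untreated wells (50.9 to 57.2%), so that its deposited read numbers, introns included, give another comparison than its exons.

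Of the IRG members, both of the regulatory IRGM kind, Igtp (NM_018738, 58199556 to 58207592), a protein of the endoplasmic reticulum and lipid droplets, was at 309.8, 361.1 and 289.9 CPM in PD-L1 antibody libraries, against 141, 111.1 and 129.1 CPM with isotype antibody and 146.3, 113.2 and 125.8 CPM in untreated wells. The groups did not overlap, and the lowest PD-L1 antibody value was nearly double the highest of the others. Its log2 fold change was 1.33 against isotype antibody (SE 0.12, limma adjusted p = 1.07e-05) and 1.31 against untreated (SE 0.12, limma adjusted p = 1.14e-05). Irgm1 (48865245 to 48871420), which controls mycobacteria and autophagy in mice, was at 489.7, 555.5 and 439.4 CPM in PD-L1 antibody libraries, against 315.8, 245 and 296.7 CPM with isotype antibody and 294.3, 258.6 and 294.8 CPM in untreated wells. The groups did not overlap. Its level per kb of exon was the highest of the 10 in isotype antibody and untreated libraries, and it changed by 0.79 against isotype antibody (SE 0.12, limma adjusted p = 0.000335) and 0.8 against untreated (SE 0.12, limma adjusted p = 0.000268).

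The isotype antibody by itself, compared with untreated wells, moved 0 of the 10 past the threshold in limma, with 1 (Gbp9) at an unadjusted p under 0.05, and 0 in edgeR, DESeq2 and limma-voom. In that comparison limma called 1 gene of all tested (0.00728%), while 1748 (12.7%) had an unadjusted p under 0.05. Without untreated 7 it called 2295 genes. The log2 fold changes of the members ran from -0.21 (Gbp6) to 0.25 (Gbp9). Gbp9 was the only member whose 3 isotype antibody libraries all lay above the untreated ones, as 7.64% of all genes did. Its unadjusted p was 0.0191 and its limma adjusted p 0.35, which became 0.0403 without untreated 7.

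**Figure D3:**
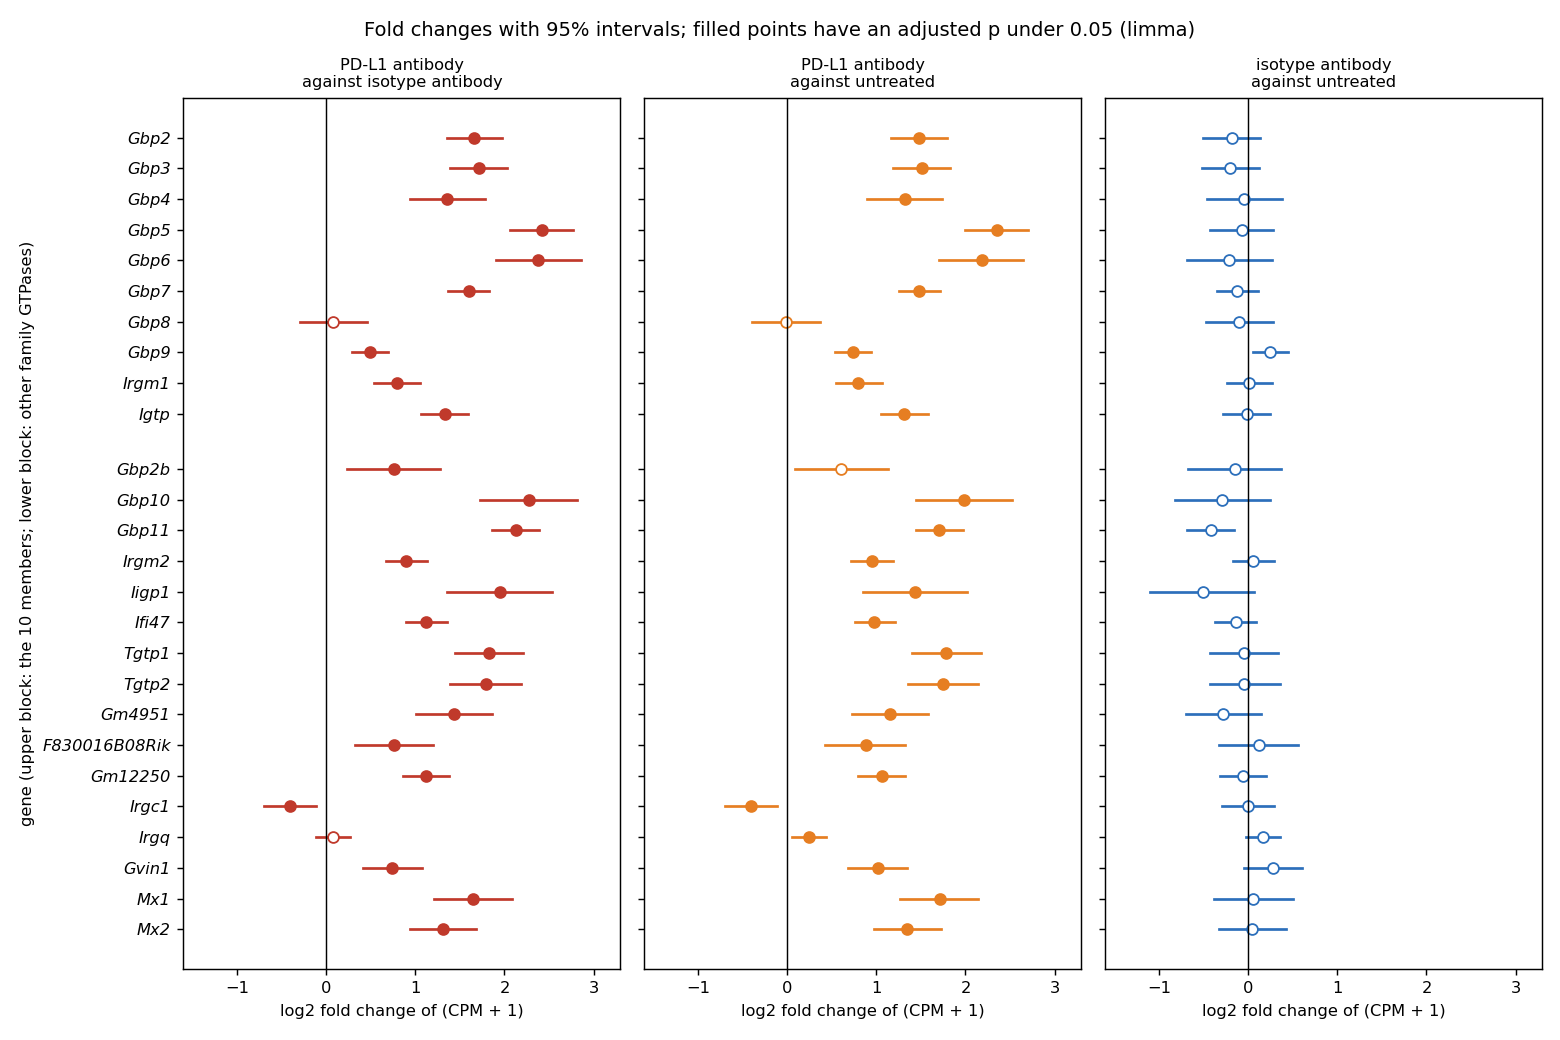
Log2 fold changes with 95% intervals for the 10 members (upper block) and 16 further GTPase genes (lower block) in the 3 comparisons, with filled points where the limma adjusted p was under 0.05. The 9 filled member points of the first panel run from 0.49 to 2.42, and no member point is filled in the isotype antibody panel.

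Within each group the members also varied together from library to library. PD-L1 antibody 2 had the highest level of its group for 10 of 10 members, a place it had for 32.1% of all genes tested. Isotype antibody 5 had the lowest level of its group for 10 of 10 members (33.1% of all genes), and untreated 8 likewise for 10 of 10 (28.5% of all genes). At the other end, isotype antibody 4 was highest of its group for 9 members (33% of all genes) and untreated 7 for 8 (41.1% of all genes). Since all members of a library share that library, these are not 10 independent observations, and the lane difference of PD-L1 antibody 2 cannot be told apart from the culture it came from.

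Levels of different genes were compared per kb of exon. Summed over the 10 genes the level was 1017 ± 126 CPM per kb with the PD-L1 antibody, 392.1 ± 57.8 with isotype antibody and 405.3 ± 39.6 in untreated wells (SD, n = 3 each). Gbp2 ranked 1 of 10 in every PD-L1 antibody library and 2 in every other library, and Irgm1 ranked the other way round. Per kb Gbp2 was at 225.8 ± 32.6 and Irgm1 at 214.7 ± 25.3 CPM under PD-L1 antibody. Library by library Gbp2 was slightly above Irgm1 there (214.5 and 212.5, 262.5 and 241, 200.4 and 190.6), a difference that was not tested. With isotype antibody Gbp2 was at 71.44 ± 13 and Irgm1 at 124 ± 15.9, and in untreated wells at 80.51 ± 8.58 and 122.6 ± 8.99 (SD, n = 3 each). Gbp9 ranked 8 in every PD-L1 antibody library and 4 or 5 elsewhere. Gbp4 and Gbp8 were at the bottom throughout.

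As shares of the summed level per kb, Irgm1 made up 20.7 to 21.9% in PD-L1 antibody libraries, against 30.9 to 32.2% with isotype antibody and 28.9 to 31.1% in untreated wells. Gbp9 made up 4.34 to 4.61% in PD-L1 antibody libraries, against 7.28 to 9.1% with isotype antibody and 6.51 to 6.99% in untreated wells. Gbp5 and Gbp6 took larger shares with the PD-L1 antibody. Gbp5 made up 7.33 to 8.53% with the PD-L1 antibody, 3.45 to 4.07% with isotype antibody and 3.51 to 4.29% in untreated wells, and Gbp6 8.1 to 8.83% with the PD-L1 antibody, 3.41 to 5.01% with isotype antibody and 4.31 to 4.92% in untreated wells. Igtp kept about the same share, a mean of 15.6% with the PD-L1 antibody, 16.1% with isotype antibody and 15.6% in untreated wells.

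**Figure D4:**
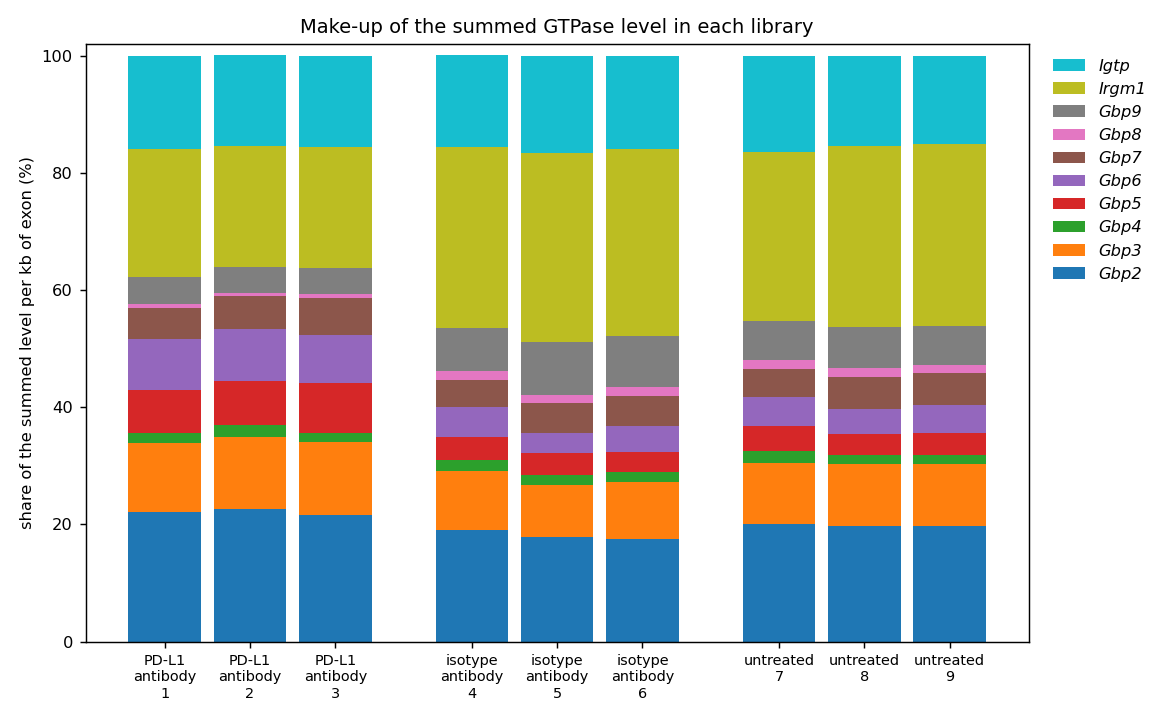
Share in percent of the summed level per kb of exon that each of the 10 genes held in each library, as stacked bars that add up to 100, with PD-L1 antibody libraries on the left, then isotype antibody and untreated ones. The Irgm1 and Gbp9 bands are narrower and the Gbp5 and Gbp6 bands wider in the 3 PD-L1 antibody bars than in the other 6.

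Several of these genes are close copies, and how the authors' counting placed reads that fit more than one gene is not given in the sources used here. Of the windows of 100 bases along a Gbp6 transcript of 2604 bases, 46.7% also occur in another gene that the files list, Gbp10 for the most part. The values of Gbp6 and Gbp10 are therefore uncertain as to which gene they belong to. The Gbp6 level was measured on 4316 exonic bases, for which the share may differ. Transcripts searched for other genes can likewise differ in length from those measured. The share was 5.67% for Igtp (all with Irgm2) and 3.81% or less for Gbp8, Gbp4, Gbp9, Gbp3 and Gbp7. It was 0 for Gbp2, Gbp5 and Irgm1. Exons also overlap those of other annotated genes: 29% of the exonic bases of Gbp6 with the gene model Gm43302, 11.3% of those of Gbp7 with Gm43802 and 8.01% of those of Igtp with Irgm2, all on the same strand.

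Of 16 further GTPases of the same families or functions in the files, 14 rose against isotype antibody, Irgc1 fell and Irgq did not pass (18.2% of all genes were higher and 18.2% lower), and the median log2 fold change was 1.22. Gbp10 shares many sequence windows with Gbp6 and so is not separate evidence. It was at 99.85 ± 13.7 CPM under PD-L1 antibody, 20.7 ± 7.69 with isotype antibody and 24.85 ± 6.31 in untreated wells (SD, n = 3 each). Gbp11 was at 8.327 ± 0.834 CPM under PD-L1 antibody, 1.13 ± 0.088 with isotype antibody and 1.86 ± 0.138 in untreated wells. Exons took 22.2 to 25.6%, 9.86 to 15.5% and 17.5 to 26.7% of the reads over the Gbp11 span in that order. Its bases covered at least once were 93.4 to 95.3%, 55.1 to 60% and 60.4 to 83.7%. Gbp2b, which lies between Gbp3 and Gbp2 on chromosome 3, was low at 4.509 ± 1.39 CPM under PD-L1 antibody, 2.29 ± 1.03 with isotype antibody and 2.558 ± 0.508 in untreated wells, with a limma adjusted p of 0.0265 against isotype antibody and 0.0574 against untreated. Its coverage was uneven. Bases covered at least 100 times were 1.24 to 2.41% under PD-L1 antibody and 0% in both other groups. Bases covered at least once were 46.2 to 80.4% under PD-L1 antibody, 53.4 to 86.8% with isotype antibody and 73 to 87.3% in untreated wells. Whether the whole transcript rose was not tested. The third IRGM gene, Irgm2, was at 357.6 ± 42 CPM under PD-L1 antibody, 191.3 ± 20.9 with isotype antibody and 183.3 ± 8.94 in untreated wells, and changed by 0.9 on the log2 scale against isotype antibody (limma adjusted p = 6.31e-05).

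The effector IRGs, which coat and disrupt vacuoles and which the IRGM proteins hold in check, rose as well. Iigp1 was at 185.8 ± 63.8 CPM under PD-L1 antibody, 48.24 ± 19.8 with isotype antibody and 65.93 ± 6.46 in untreated wells (SD, n = 3 each), and changed by 1.95 on the log2 scale against isotype antibody (limma adjusted p = 0.000198). Tgtp1 and Tgtp2, which share 80% or more of their sequence windows with each other, had log2 fold changes of 1.83 and 1.79. The RNA of Mx1 and Mx2, genes of the dynamin family of GTPases, changed by 1.65 and 1.31. The Mx2 transcript measured bears a RefSeq name of the non-coding kind (NR_003508). Whether either gene made a working protein in these cells was not tested. Irgc1 was at 0.546 CPM or less in every library, and its call as lower against isotype antibody was lost without any 1 of the PD-L1 antibody libraries or without isotype antibody 5 or 6. With the isotype antibody against untreated wells 0 of the 16 were called in limma (0.00728% of all genes tested). An unadjusted p under 0.05 was found for 1 of them (Gbp11) and for 12.7% of all genes tested.

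Upstream of the GTPases, 1 interferon ligand gene passed the filter on low values. Ifnb1, which encodes interferon beta, was at 2.077, 2.874 and 2.757 CPM under PD-L1 antibody, against 0.1265, 0.07592 and 0.05456 CPM with isotype antibody and 0.154, 0.1347 and 0 CPM in untreated wells. These rest on 64.5 to 74.4 read equivalents per PD-L1 antibody library and on 4 or fewer in each of the others. Ifng, which encodes interferon gamma, was at 0.1339, 0.08913 and 0 CPM under PD-L1 antibody, 0, 0.07086 and 0 with isotype antibody and 0, 0.1293 and 0.1483 in untreated wells, at most 6 read equivalents in a library, and no difference was detectable at this depth.

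Of 7 interferon receptor and kinase genes 5 rose against isotype antibody and none fell, where 18.2% of all genes were higher and 18.2% lower. Jak2, the kinase of the interferon gamma receptor among others, was at 303.8 ± 22.1 CPM under PD-L1 antibody, 88.79 ± 6.41 with isotype antibody and 77.39 ± 16.4 in untreated wells (SD, n = 3 each). The receptor chains Ifnar1 and Ifngr2 changed by 0.73 and 0.62 on the log2 scale. The other chain, Ifngr1, was at 113.3 ± 4.33 CPM under PD-L1 antibody, 144.6 ± 11.1 with isotype antibody and 160.9 ± 35.6 in untreated wells, and passed as lower against untreated (log2 fold change -0.48) but not against isotype antibody (limma adjusted p = 0.0764), where it passed as lower with total-count or upper-quartile scaling.

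Of 7 transcription factor genes of the response 4 rose against isotype antibody (18.2% of all genes tested). Stat2 was at 585.8 ± 65.4 CPM under PD-L1 antibody, 258.2 ± 47.8 with isotype antibody and 249.2 ± 55 in untreated wells (SD, n = 3 each). Batf2 changed by 1.33 and Irf1, which is needed for many GBPs in mice, by 0.46. Irf8 had a log2 fold change of -0.3 (limma adjusted p = 0.0691), which passed as lower against untreated (-0.54) and also against isotype antibody with total-count or upper-quartile scaling. The feedback inhibitors Socs3 (log2 fold change 4.35), Usp18 (1.93), Socs1 (1.92) and Cish (1.53) rose, and Ptpn2 and Pias1 did not pass, though Pias1 passed as lower with total-count scaling.

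Downstream, 7 of 9 inflammasome genes rose against isotype antibody (18.2% of all genes) and 6 of 9 against untreated (22% of all genes), and none fell. Casp4, which senses cytosolic lipopolysaccharide that GBPs lay bare, was at 75.14 ± 7.12 CPM under PD-L1 antibody, 47.85 ± 6.3 with isotype antibody and 52.27 ± 8.19 in untreated wells (SD, n = 3 each). Gsdmd, the pore-forming gasdermin D, was at 200 ± 2.96 CPM under PD-L1 antibody, 126.4 ± 4.53 with isotype antibody and 129.2 ± 15.5 in untreated wells. Nlrp3 changed by 1.19 and Il1b by 4.14. Aim2, the sensor of cytosolic DNA, was at 36.93 ± 1.35 CPM under PD-L1 antibody, 37.57 ± 4.05 with isotype antibody and 34.93 ± 3.18 in untreated wells, with a log2 fold change of -0.02 against isotype antibody (95% interval -0.24 to 0.2).

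Of 13 autophagy conjugation and ubiquitin genes, which bring GBPs and IRGs to vacuoles, 3 rose against isotype antibody (Trim21 by 0.84, Sqstm1 by 0.45 and Atg5 by 0.35) and 4 fell (Gabarapl1, log2 fold change -0.68, Map1lc3a, -0.41, Map1lc3b, -0.39, and Atg7, -0.27). Gabarapl1, a ubiquitin-like protein of the Atg8 family, was at 92.6 ± 9.39 CPM under PD-L1 antibody, 148.4 ± 4.27 with isotype antibody and 150.5 ± 13.2 in untreated wells (SD, n = 3 each). These counts of 3 and 4 of 13 lie near the 18.2% higher and 18.2% lower of all genes tested. They depended on scaling, with 1 higher and 5 lower under total-count scaling and 2 and 5 under upper-quartile scaling. Of 5 prenylation enzyme genes, whose products attach the lipid that several GBPs need for membranes, none passed against isotype antibody. Fnta was lower against untreated, and with total-count scaling also against isotype antibody. Over all genes tested 36.4% were called against isotype antibody and 42.4% against untreated.

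**Figure D5:**
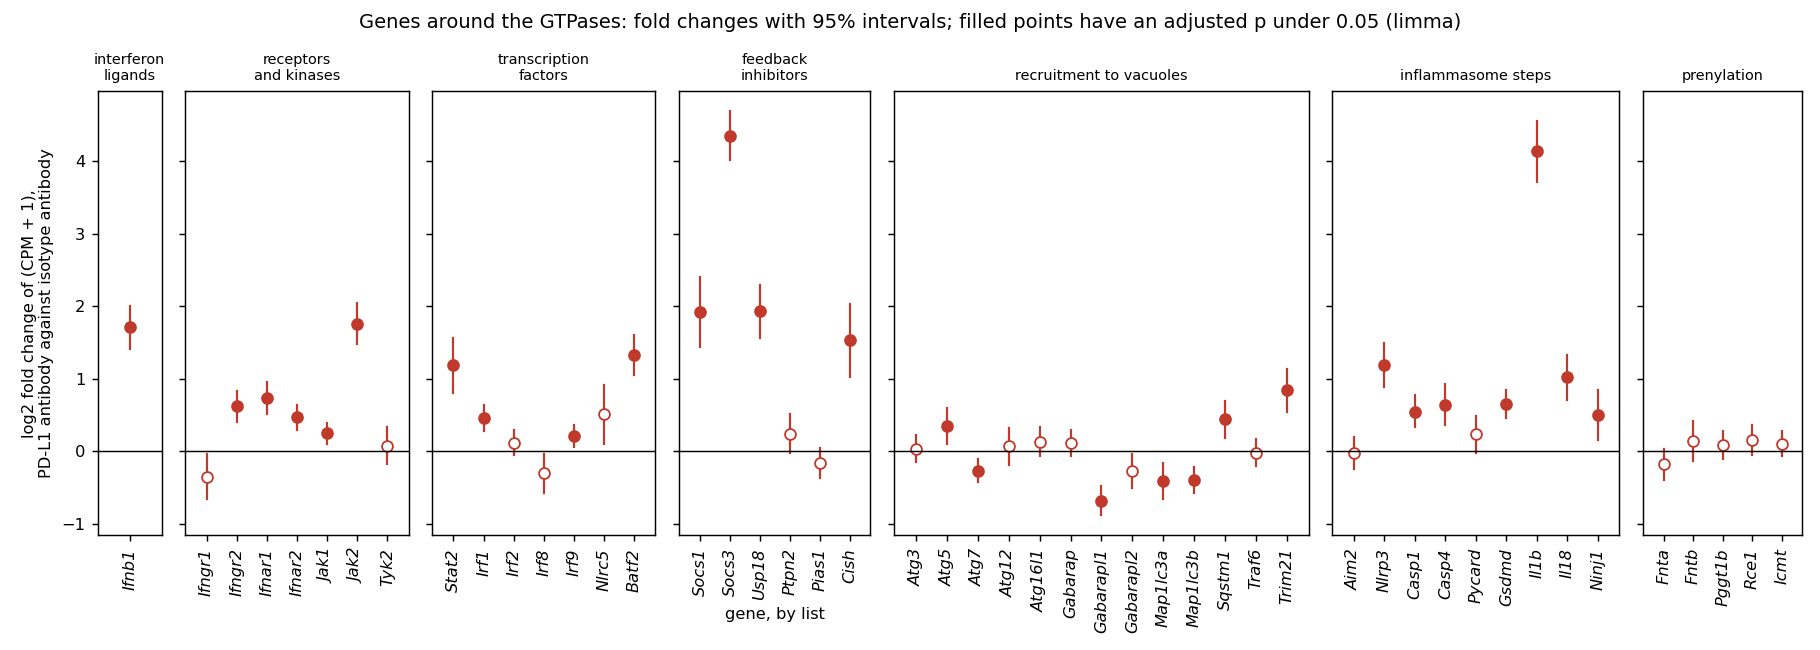
Log2 fold changes of PD-L1 antibody against isotype antibody, with 95% intervals, for genes of 7 lists around the GTPases, with filled points where the limma adjusted p was under 0.05. Socs3 (4.35) and Il1b (4.14) stand highest, the feedback inhibitor and inflammasome panels hold no filled point under 0, and the vacuole recruitment panel has filled points on both sides of 0.

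Markers of cells that make interferon gamma were low. The 5 natural killer cell markers in the files were each under 1 CPM in every library and summed to 0.1281 to 0.5835 CPM under PD-L1 antibody, 0.4312 to 0.6 with isotype antibody and 0.2518 to 0.8815 in untreated wells. The T cell markers summed to 8.34 to 10.66 CPM under PD-L1 antibody, 10.54 to 17.92 with isotype antibody and 16.84 to 25.78 in untreated wells, with 3 or 4 of the 6 in the files under 1 CPM. The B cell markers summed to 4.582 to 5.73 CPM under PD-L1 antibody, against 5.186 to 6.636 with isotype antibody and 5.177 to 10.27 in untreated wells. Of 4 tested T cell markers Cd4 was lower against isotype antibody (log2 fold change -1.17, limma adjusted p = 0.0216), and Cd4 (-2.48) and Cd3e (-0.53) were lower against untreated. Neutrophil and granulocyte precursor markers summed to 349.6 to 492.1 CPM under PD-L1 antibody, 674.3 to 1265 with isotype antibody and 505.3 to 700.9 in untreated wells. Against isotype antibody 5 of the 8 tested of these were lower with the PD-L1 antibody and none was higher. Against untreated 6 of the 8 were lower and none was higher. Over all genes tested 18.2% were higher and 18.2% lower against isotype antibody, and 22% higher and 20.5% lower against untreated. Dendritic cell markers summed to 425.2 to 486.8 CPM under PD-L1 antibody, 360.4 to 570.5 with isotype antibody and 303.1 to 558.5 in untreated wells. Ccr7, with means of 405.7, 387.9 and 331.7 CPM in that order, made up much of these sums and passed in neither comparison. Of the 8 markers 5 were lower and 1 higher against isotype antibody, and likewise against untreated. Fibroblast markers summed to 32.1 to 51.45 CPM under PD-L1 antibody, 22.71 to 36.31 with isotype antibody and 30.51 to 59.41 in untreated wells, with 3 of 5 tested higher against isotype antibody, and 1 higher (Dcn) and 1 lower (Col1a2) against untreated. The part of other cells in the GTPase levels was not tested.

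The 4 genes outside the GTPase lists whose profile over the 9 libraries lay closest to the mean profile of the 10 members, by root-mean-square distance of centred log2(CPM + 1), were Herc6 (0.047), Zbp1 (0.0631), Parp11 (0.0872) and Ccrl2 (0.0894). Herc6, the mouse ligase that attaches ISG15, averaged 297.8 CPM under PD-L1 antibody, 111.7 with isotype antibody and 112.6 in untreated wells. Zbp1, a sensor of Z-form nucleic acid, averaged 382.6 CPM under PD-L1 antibody, 158.2 with isotype antibody and 160.5 in untreated wells. Among the members themselves Igtp was nearest to the mean profile (0.0471) and Gbp8 farthest from it (0.626), with Gbp5 (0.495) and Gbp6 (0.46) next.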

How the data were processed

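The deposited files list RefSeq transcripts per library. The deposited read counts cover each transcript's whole genomic span: in 4738 of 4738 cases isoforms of identical span carried identical read numbers. Average coverage, a signal per exonic base, and the percent of bases covered are given per the file headers. Partek and STAR are named in the submitters' processing notes, and their versions, the build and the annotation are not given in the sources used here. Of 21782 symbols also in RefSeq GRCm38.p6, 21574 (99.05%) overlapped the gene of that name, and positions are read on that build.

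Because the deposited counts include introns, the main values were exonic read equivalents, average coverage multiplied by exon length over the read length of 150, from the transcript with most of them per symbol. Genes were filtered with edgeR's filterByExpr, libraries scaled by TMM, and log2(CPM + 1) fitted in limma with a trended variance, all 9 libraries and 1 mean per group. Alternatives were edgeR and DESeq2 on counts, limma-voom, other scalings, filters, pseudocounts of 0.25 and 5, a 0.01 threshold and omission of single libraries. Promoters are RefSeq's (GRCm38.p6), and shared windows and exon overlaps come from GENCODE M21 transcripts. The members and lists were chosen with earlier results of these data known. All members, genes of the fixed lists and the nearest profiles may be named; 2 items of these are not reported here. Rnf213, Ifne, Trac and Gzma, also on the lists, were not analysed here. The procedure was tested on simulated data. Intervals and depths cover counting and library spread only, since reads without molecular identifiers may copy 1 molecule. Software was R 4.3.3, limma 3.58.1, edgeR 4.0.16, DESeq2 1.42.0, Python 3.11.15, pandas 2.3.3, numpy 2.4.6 and matplotlib 3.10.9.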

Additional observations from a re-analysis of the deposited data

How the results depend on the processing

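In each of 23 alternatives 9 of the 10 members were called higher with the PD-L1 antibody, against isotype antibody and against untreated wells. With isotype antibody against untreated 0 members were called, except that leaving out untreated 7 called 1 (Gbp9), so the counts without 1 library ran from 0 to 1. No paired analysis was possible because the groups share no replicate numbers.

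Over all genes, a threshold of 0.01 called 3228 genes for PD-L1 antibody against isotype antibody, 3821 against untreated and 0 for isotype antibody against untreated. Leaving out 1 library gave 3774 to 6030, 4524 to 6766 and 0 to 2295 in these comparisons, the last without untreated 7. For isotype antibody against untreated DESeq2 on deposited counts called 157 genes, edgeR on deposited counts 2, edgeR on rounded exonic values 0, limma-voom 0, a fit of only these groups 0 and total-count scaling 2. The cause was not tested.

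Signs turned only for values that were not called. For isotype antibody against untreated these were Gbp4 (DESeq2 0.12, edgeR on deposited counts 0.16, without 1 library -0.16 to 0.15), Gbp5 (DESeq2 0, edgeR on deposited counts 0.04, without 1 library -0.22 to 0.08), Gbp6 (without 1 library -0.42 to 0.06), Gbp8 (DESeq2 0.11, edgeR on deposited counts 0.14, without 1 library -0.21 to 0.12), Igtp (edgeR on deposited counts 0.02, total-count scaling 0.01, without 1 library -0.1 to 0.08) and Irgm1 (fit of only these groups 0, upper-quartile scaling -0.01, without 1 library -0.06 to 0.12). For Gbp8 the value against isotype antibody was -0.08 with total-count scaling, -0.13 to 0.19 without 1 library and at most 0.25 in any alternative. Its value for PD-L1 antibody against untreated was 0.36 with DESeq2 and 0.36 with edgeR on deposited counts, 0 with limma-voom and -0.11 to 0.09 without 1 library.

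The counts of the lists around the GTPases were recomputed under other scalings and without each library, a step chosen after seeing the data. The other GTPases then had 12 to 14 rises against isotype antibody and 13 to 15 against untreated, the inflammasome genes 6 to 7 and 6, the receptors and kinases 4 to 5 and 4 to 6, the transcription factors 3 to 5 and 3 to 4, and the feedback inhibitors 4 and 4. Depth limits low genes, such as Ifnb1, Ifng and Irgc1.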
